A study of Mus musculus with 2 samples.

Results

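The genes described here are 33 mouse genes of the synaptic vesicle and of the machinery that fuses it with the membrane. They were taken by symbol, and all 33 were found in both libraries among 32285 genes. They fall into 7 roles, namely 6 SNAREs and SNARE-recycling proteins, 8 calcium sensors, 2 complexins, 6 priming and active zone proteins, 2 Rab3 proteins, 6 vesicle proteins and 3 vesicular glutamate transporters. Their levels were read in sensory neuron subtypes and glia of the dorsal root ganglion, the paired knots along the spinal cord where sensory neurons have their cell bodies, at postnatal day 4. Single-cell 3′ RNA libraries had been made from dissociated ganglia of every axial level. One library (flox) came from Ptges3 flox/flox mice and 1 (cKO) from Dhh CRE+, Ptges3 flox/flox mice, so both carry the floxed alleles and only the second carries Cre. Dhh-Cre is used to recombine alleles in the Schwann cell lineage, not in neurons. Ptges3 encodes the cochaperone p23, also described as a prostaglandin E synthase, and the series asks how prostaglandin E2 from Schwann cells bears on sensory neuron excitability. The sources used here do not give how many animals were pooled for a library.

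A synaptic vesicle is filled with glutamate by a vesicular transporter, is held near the active zone by scaffold and Rab3 proteins, and is primed for fusion by the Munc13 and RIM families. Fusion is driven by a SNARE bundle of a vesicle VAMP with SNAP-25 and syntaxin, is clamped and promoted by complexins, and is triggered when a synaptotagmin binds calcium. Sensory neurons carry this machinery in their central terminals in the spinal cord, and their large cell bodies in the ganglion hold the mRNA. Paralogs differ in use, for instance synaptotagmin 1 and 2 as fast calcium sensors, or the transporters VGLUT1 (Slc17a7), VGLUT2 (Slc17a6) and VGLUT3 (Slc17a8).

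After the cell filter and the removal of likely doublets there were 8107 flox and 7866 cKO cells, and 16 kept barcodes were shared by the libraries. Neurons and glia were taken by marker gates that used none of the 33 genes, and the limits of those gates were set after the marker levels had been seen. The neuron gate held 1541 flox and 3096 cKO peripheral sensory neurons. A cell inside a single subtype gate took that subtype, and 528 flox and 1641 cKO neurons had none. The subtypes were Mrgprd nociceptors (388 flox and 306 cKO cells), C-low-threshold mechanoreceptors (C-LTMRs, 214 and 123), pruriceptors (29 and 40), peptidergic nociceptors (210 and 714), Calca neurofilament neurons (30 and 63), proprioceptors (34 and 35) and myelinated low-threshold mechanoreceptors (myelinated LTMRs, 85 and 123). Their fixed markers were raised in both libraries for 7 of 8 (Mrgprd), 5 of 6 (C-LTMR, with Th not raised), 6 of 7 (peptidergic), 4 of 7 (Calca neurofilament), 6 of 7 (proprioceptor) and 8 of 9 (myelinated LTMR). For pruriceptors 3 of 7 were raised (Nts, Osmr and Cysltr2) and Sst stood at 3.76 and 0 CPM, so that gate rests on a weaker base. A level is given as CPM, the UMIs of a gene (unique molecular identifiers, each counting 1 RNA molecule) per 1000000 UMIs summed over the cells of a class. As 3′ counting gives 1 UMI for 1 molecule whatever its length, levels were not scaled by gene length. Intervals in parentheses are exact 95% intervals of counting error only, since 1 library for each genotype gives no replicate error and no test between genotypes.

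Depth differed between the libraries. Neurons had a median of 46776 UMIs in the flox and 9164.5 in the cKO library, and 14.7% and 52.2% of them held under 10000 UMIs. Neurons of the cKO library also held more glial RNA, with medians of 3.55 and 11.6 UMIs of the glial marker panel per 10000, and the part of this in the ratios between genotypes was not tested. Ptges3 stood in all gated glia at 225 CPM (flox) against 127 CPM (cKO), log2 ratio -0.83 (-0.95 to -0.71). In neurons it stood at 276 CPM (flox) against 392 CPM (cKO), log2 ratio 0.51 (0.48 to 0.54). The counts come from the 3′ end, so a UMI can stem from an allele that has lost its floxed part.

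Some release genes separated neurofilament-rich neurons from the rest in both libraries, while others, such as Vamp2, Syt1 and Syt11, did not. In both libraries 8 of the 33 were higher in each of the Calca neurofilament, proprioceptor and myelinated LTMR gates than in each of the other 4 subtypes. These were Syt2, Slc17a7, Sv2b, Snap25, Cplx1, Vamp1, Napb and Rab3a. Of all 15023 measured genes, meaning genes whose UMIs in the gated neurons of both libraries came to 50 or more, 3.73% met the same condition. Syt5 and Stx1a were lower in each of those 3 subtypes, a condition met by 5.23% of genes. This grouping of subtypes was chosen after the levels had been seen. In neurons of at least 10000 UMIs, 7 members (without Rab3a) met the first condition, and Syt5 and Syt7, but not Stx1a, met the second. With stricter marker limits, which left 10 flox and 12 cKO Calca neurofilament neurons, 3 members (Syt2, Cplx1 and Sv2b) were higher in all 3 subtypes, against 2.02% of genes. With every neuron thinned to 1000 UMIs it was also 3 (Snap25, Cplx1 and Sv2b), against 0.746% of genes.

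**Figure D1:**
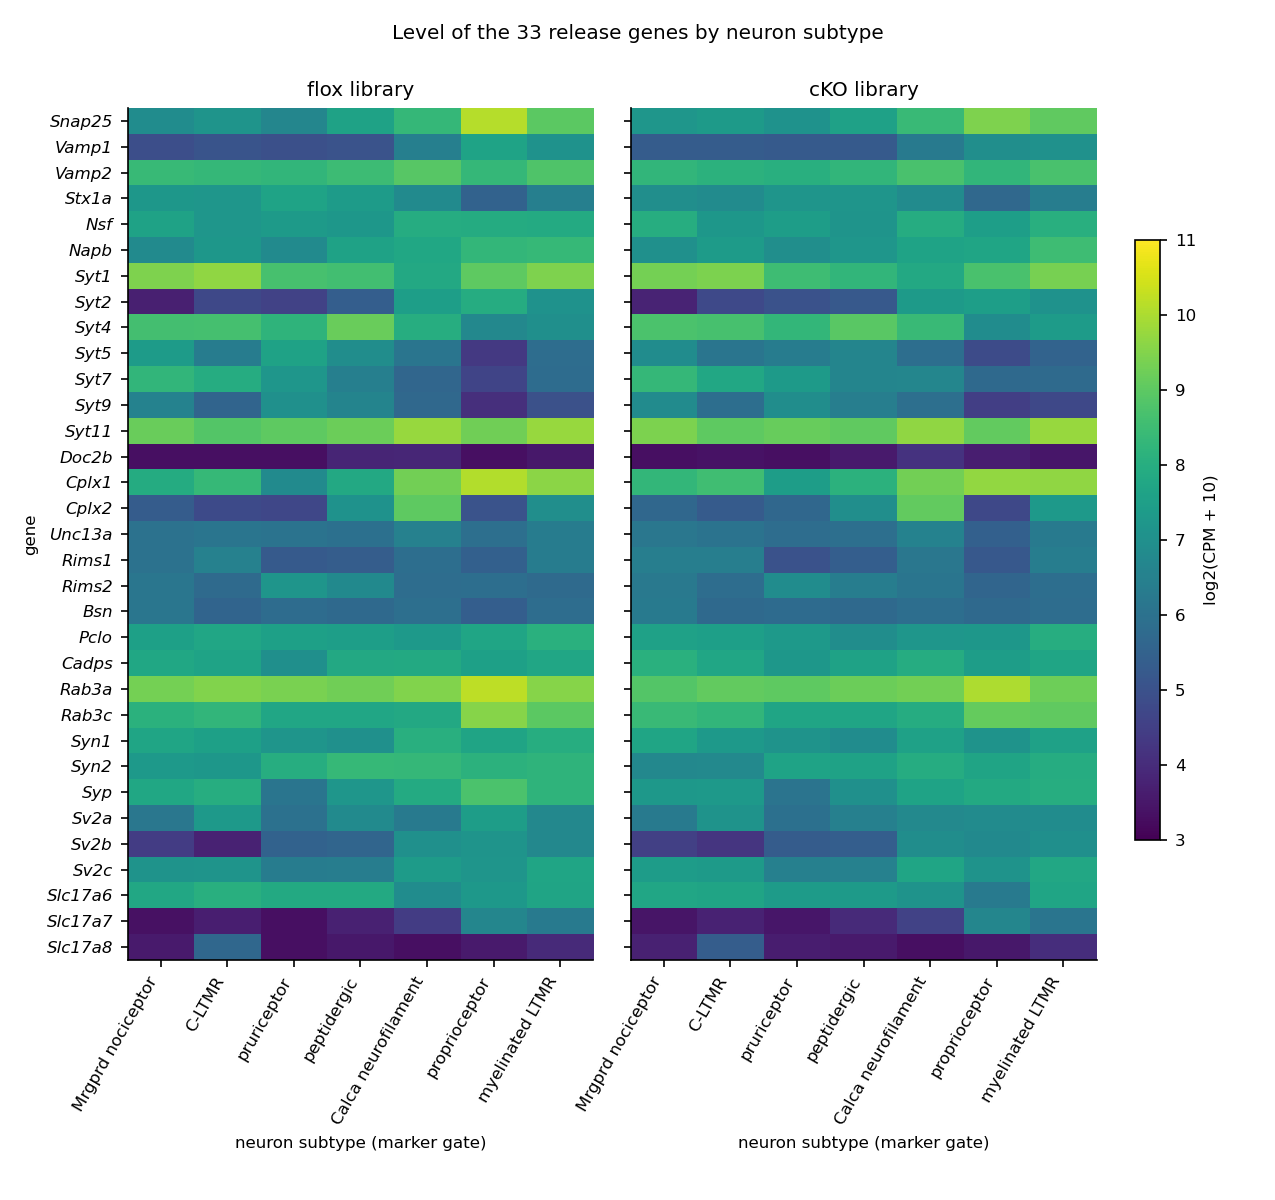
Heat maps of the level of the 33 genes (rows) in 7 neuron subtypes (columns) of the flox (left) and cKO library (right), coloured by log2 of CPM with 10 added. Syt2, Sv2b and Vamp1 are brighter in the 3 rightmost columns of both maps than in the rest, Slc17a7 is brightest in the last 2, Cplx2 stands out in Calca neurofilament neurons and Slc17a8 in C-LTMRs.

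The 3 glutamate transporters divided the subtypes. Slc17a7 (ENSMUSG00000070570, chr7:45163949-45176142, forward strand) was highest in proprioceptors, followed by myelinated LTMRs. Proprioceptors held 91.5 CPM (73.8 to 112) in flox and 91.1 CPM (70.3 to 116) in cKO cells. Myelinated LTMRs held 66.5 CPM (59.8 to 73.8) and 58.7 CPM (50.5 to 67.8). These are the muscle and touch afferents. Their intervals overlapped at the edge in the flox library and did not overlap in the cKO library, and both were above the Calca neurofilament neurons at 11.3 and 13.9 CPM. Levels were 3.38 and 5.44 CPM in peptidergic neurons, 2.69 and 3.47 CPM in C-LTMRs and 0.262 and 1.01 CPM in Mrgprd nociceptors. Pruriceptors had no Slc17a7 UMI in the flox library, which allows up to 2.82 CPM, and 1.25 CPM in the cKO library.

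Cells with a Slc17a7 UMI made up 73.5% and 68.6% of proprioceptors and 90.6% and 53.7% of myelinated LTMRs in the flox and cKO library. Fibroblasts, which should lack the transporter, had a UMI in 0.389% and 0.7% of cells at median depths of 6669 and 4368.5 UMIs. Since the depth of neurons differed, the cells of at least 5000 UMIs were also thinned to 5000. This left out 146 of 1541 flox and 953 of 3096 cKO neurons as shallower, among them 64 of 306 cKO Mrgprd nociceptors, 35 of 123 cKO C-LTMRs and 19 of 123 cKO myelinated LTMRs. The shares of the deeper cells then were 29.0% (14.2 to 48.0) and 37.9% (20.7 to 57.7) of proprioceptors, 27.7% (18.4 to 38.6) and 19.2% (12.2 to 28.1) of myelinated LTMRs, and 0.543% (0.0659 to 1.95) and 0% (0 to 1.51) of Mrgprd nociceptors. At equal depth the intervals of the libraries overlapped in each of these 3 subtypes.

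Slc17a8 (ENSMUSG00000019935, chr10:89574020-89621253, reverse strand) was highest in C-LTMRs, the unmyelinated touch neurons that VGLUT3 is known to mark. They held 41.1 CPM (36.8 to 45.7) in flox and 31.2 CPM (24.8 to 38.8) in cKO cells. The next levels, 5.43 and 6.38 CPM, were in myelinated LTMRs, and in the other subtypes the gene stood between 0 and 3.24 CPM. No UMI was found in Calca neurofilament neurons, which allows up to 1.25 CPM for flox and 3.49 CPM for cKO cells. Among cells thinned to 5000 UMIs, 21.4% (15.9 to 27.7) of flox and 10.2% (4.78 to 18.5) of cKO C-LTMRs had a UMI. In fibroblasts, at their own depth and not thinned, the share was 0.324% and 0.14%.

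Slc17a6 (ENSMUSG00000030500, chr7:51622006-51671119, forward strand), the transporter most sensory neurons use, was found in every subtype. In the flox library it was highest in C-LTMRs at 253 CPM (242 to 264) and lowest in Calca neurofilament neurons at 108 CPM (95.4 to 122). In the cKO library it was highest in Mrgprd nociceptors at 201 CPM (192 to 210.5) and lowest in proprioceptors at 67.3 CPM (49.6 to 89.2). The order of the subtypes thus differed between the libraries, and the cKO intervals of Mrgprd nociceptors, myelinated LTMRs and C-LTMRs overlapped. Of the 3 transporters Slc17a7 took 38.3% and 57.0% of the UMIs in proprioceptors. Its share was 25% (22.8 to 27.4) and 22.1% (19.4 to 25.1) in myelinated LTMRs, against 0.122% and 0.49% in Mrgprd nociceptors. Slc17a8 took 13.9% (12.5 to 15.3) and 13.6% (10.9 to 16.6) in C-LTMRs.

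**Figure D2:**
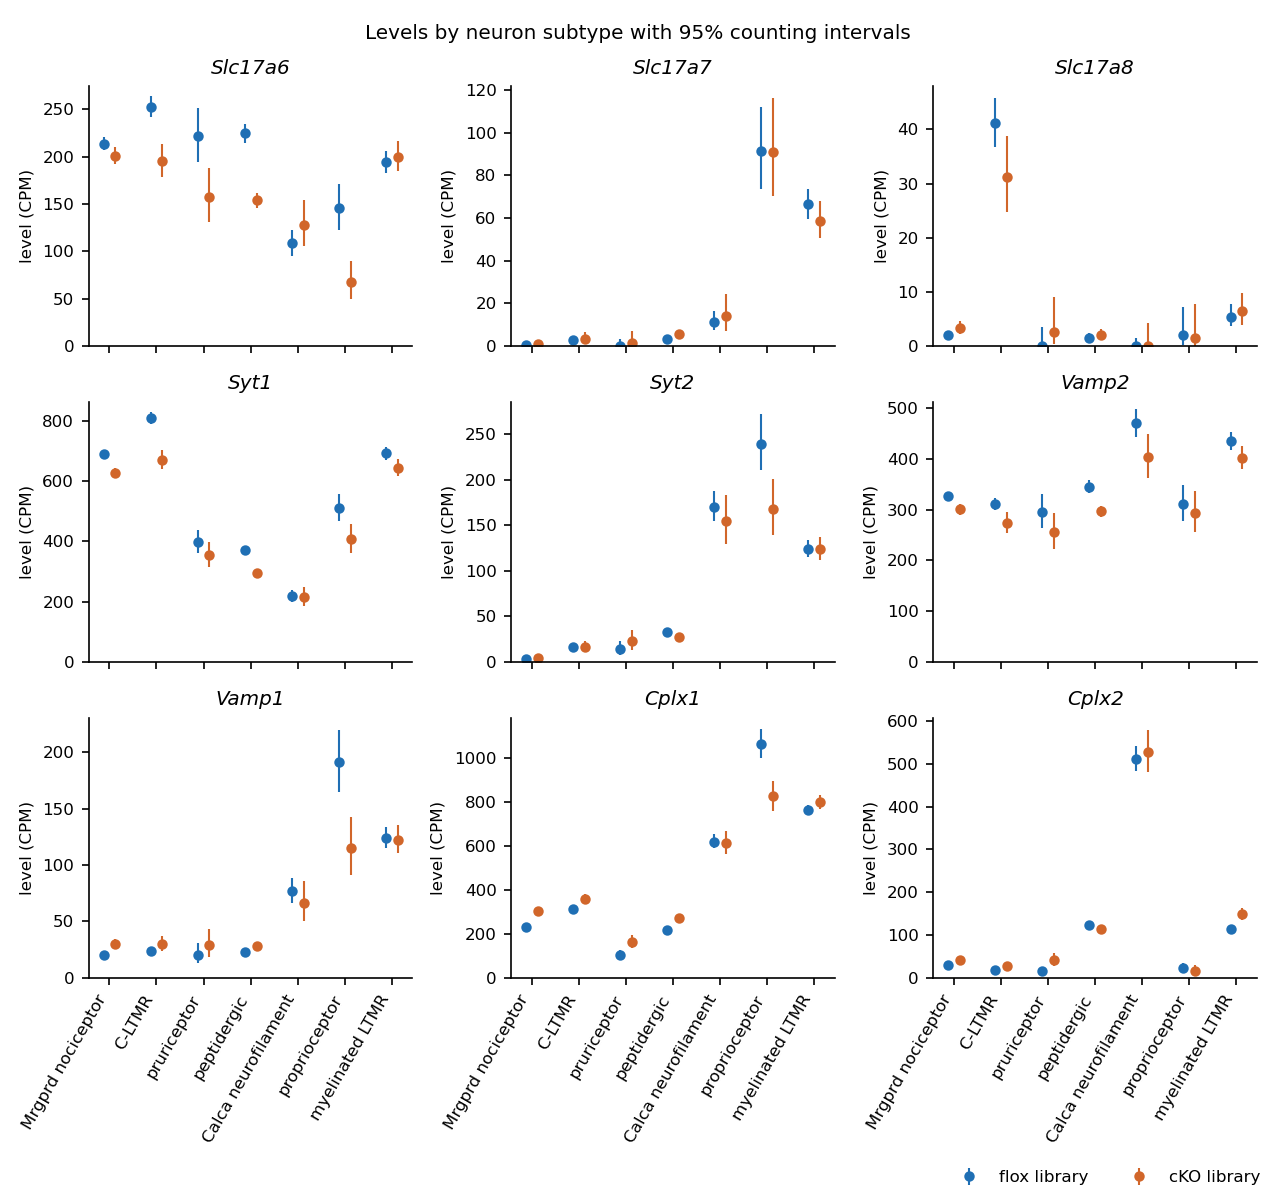
Levels in CPM (vertical axis, from 0) of 9 release genes in 7 neuron subtypes, flox library in blue and cKO library in orange, with bars for the exact 95% counting interval. Slc17a7, Syt2 and Vamp1 are high in the last 3 or 2 subtypes, Slc17a8 in C-LTMRs and Cplx2 in Calca neurofilament neurons, while Slc17a6, Syt1 and Vamp2 are found in every subtype.

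Among the SNAREs, Vamp2 and Vamp1 encode synaptobrevins, the vesicle partners of the bundle. Vamp2 (ENSMUSG00000020894, chr11:69088490-69092384, forward strand) was found in every subtype, from 296 and 256 CPM in pruriceptors to 470.4 and 405 CPM in Calca neurofilament neurons. Vamp1 (ENSMUSG00000030337, chr6:125215551-125245964, forward strand) stood between 20.6 and 30.4 CPM in the 4 subtypes without high neurofilament. In the others it was at 76.9 and 66.3 CPM in Calca neurofilament neurons, 124 and 122 CPM in myelinated LTMRs and 191 and 115 CPM in proprioceptors. Myelinated LTMRs and proprioceptors overlapped in the cKO library and not in the flox library. Of the UMIs of the pair, Vamp1 made up 5.93% (5.38 to 6.53) and 9.18% (8.16 to 10.3) in Mrgprd nociceptors. In myelinated LTMRs it was 22.2% (20.7 to 23.8) and 23.3% (21.3 to 25.4), and in proprioceptors 37.9% (33.7 to 42.3) and 28.1% (23.0 to 33.6).

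Snap25 (ENSMUSG00000027273, chr2:136713453-136782428, forward strand), the plasma membrane SNARE, was also high in those 3 subtypes. It was at 1085 and 689.8 CPM in proprioceptors, 498 and 518 CPM in myelinated LTMRs and 312 and 331 CPM in Calca neurofilament neurons, against 91.3 and 124 CPM in pruriceptors. Its partner Stx1a, syntaxin 1A, ran the other way, with 35.8 and 42.1 CPM in proprioceptors and 188 and 134 CPM in pruriceptors. Napb, a SNAP adaptor of the NSF ATPase that takes spent bundles apart, was at 103 and 118 CPM in Mrgprd nociceptors and 317 and 357 CPM in myelinated LTMRs. Nsf itself was at 187 and 246 CPM in Mrgprd nociceptors and 228 and 254 CPM in myelinated LTMRs.

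The fast calcium sensors were split in the same way. Syt2 (ENSMUSG00000026452, chr1:134646677-134762593, forward strand) was lowest in Mrgprd nociceptors, at 2.89 CPM (2.18 to 3.76) and 4.02 CPM (2.82 to 5.57). It was at 14.1 and 22.5 CPM in pruriceptors, 16.9 and 17.0 CPM in C-LTMRs and 32.4 and 27.3 CPM in peptidergic neurons. It was at 124 and 124 CPM in myelinated LTMRs, 170.4 and 155 CPM in Calca neurofilament neurons and 239.7 and 168 CPM in proprioceptors. In the cKO library the intervals of proprioceptors and Calca neurofilament neurons overlapped. Syt1 (ENSMUSG00000035864, chr10:108497650-109010982, reverse strand) had another order, highest in C-LTMRs at 810.5 and 671 CPM and lowest in Calca neurofilament neurons at 218 and 215 CPM, although in the cKO library C-LTMRs and myelinated LTMRs (643 CPM) overlapped. Syt2 thus gave 43.9% (40.7 to 47.1) and 41.8% (36.3 to 47.5) of the UMIs of the pair in Calca neurofilament neurons. The share was 31.9% and 29.3% in proprioceptors, 15.2% and 16.1% in myelinated LTMRs and 0.418% and 0.638% in Mrgprd nociceptors. At 5000 UMIs a Syt2 UMI was found in 64.5% (45.4 to 80.8) and 58.6% (38.9 to 76.5) of proprioceptors but in 2.72% (1.31 to 4.94) and 3.31% (1.44 to 6.41) of Mrgprd nociceptors. In fibroblasts, at their own depth, it was found in 0.778% and 0.7%.

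**Figure D3:**
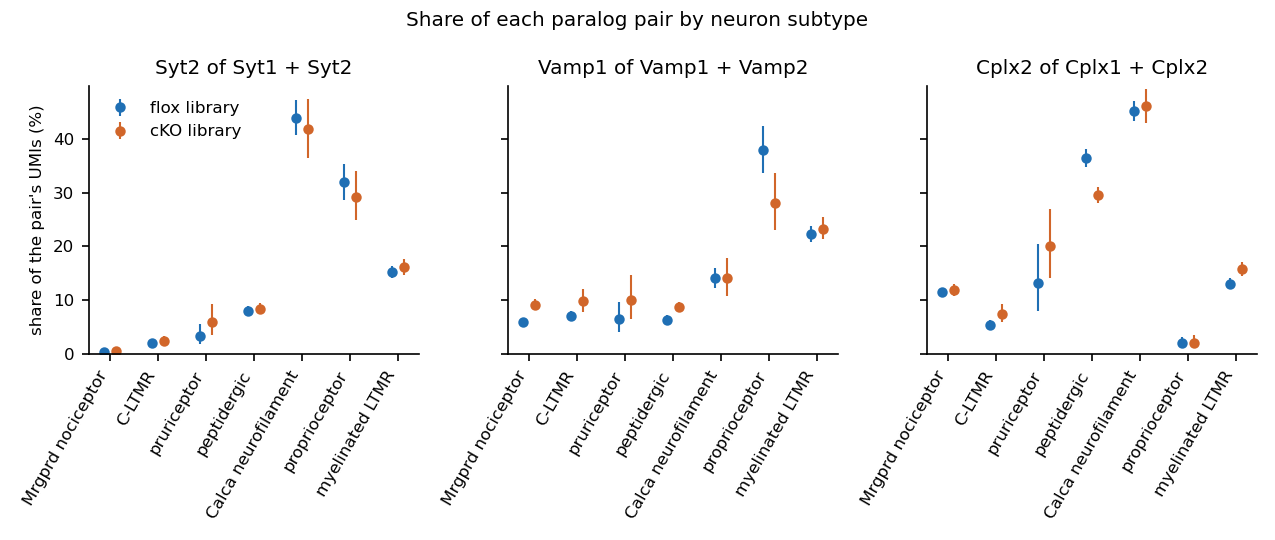
Share (%) of the UMIs of a paralog pair held by Syt2, Vamp1 or Cplx2 in each neuron subtype, flox library in blue and cKO library in orange, with exact 95% binomial bars. Syt2 reaches 43.9% and 41.8% in Calca neurofilament neurons, Vamp1 37.9% and 28.1% in proprioceptors, and Cplx2 is lowest in proprioceptors at 2.1% and 1.99%.

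Syt4, Syt5, Syt7 and Syt9 had their lowest levels in proprioceptors in both libraries. Of Syt5, Syt7 and Syt9 only 7 to 31 UMIs were found there, and in the cKO library their intervals overlapped those of myelinated LTMRs (36.7, 44.3 and 16.9 CPM). The Syt4 interval overlapped that of myelinated LTMRs (117 CPM) in the flox library. Syt7, a slow, high-affinity calcium sensor, was at 296 and 309 CPM in Mrgprd nociceptors and 14.9 and 43.5 CPM in proprioceptors. Syt9, also a calcium sensor, was highest in pruriceptors in both libraries (119 and 110.1 CPM), in the cKO library with overlap with Mrgprd nociceptors (106 CPM), and stood at 6.96 and 12.6 CPM in proprioceptors. Syt5 was at 184 and 72.6 CPM in pruriceptors and 9.95 and 18.2 CPM in proprioceptors. Neither the pruriceptor nor the proprioceptor gate held more than 40 cells in a library. Syt4, a synaptotagmin of dense-core vesicles, was highest in peptidergic neurons (570.4 and 484 CPM), which release neuropeptides from such vesicles, and lowest in proprioceptors (97.5 and 109 CPM). Syt11, which binds no calcium, was high in every subtype, from 453 and 511 CPM in C-LTMRs to 861 and 868 CPM in myelinated LTMRs. Doc2b, a sensor of spontaneous release, was at 1.32 and 1.37 CPM over all neurons, with 90 and 71 UMIs, and was not measured by the 50-UMI rule in 6 of the 7 subtypes.

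The complexins differed among the neurofilament-rich subtypes. Cplx1 (ENSMUSG00000033615, chr5:108518554-108550024, reverse strand) was at 1066 and 827 CPM in proprioceptors, 764 and 802 CPM in myelinated LTMRs and 621 and 616 CPM in Calca neurofilament neurons, against 104 and 165 CPM in pruriceptors. Cplx2 (ENSMUSG00000025867, chr13:54371349-54383917, forward strand) had the widest range over subtypes of the 33 genes on the scale of log2 of CPM with 10 added. It was at 512 CPM (483 to 541) and 528 CPM (480.3 to 579) in Calca neurofilament neurons and 22.9 CPM (14.5 to 34.3) and 16.8 CPM (8.69 to 29.4) in proprioceptors. Peptidergic neurons held 125 and 114 CPM and myelinated LTMRs 114 and 149.5 CPM. Cplx2 therefore gave 45.2% (43.3 to 47.1) and 46.1% (43.0 to 49.3) of complexin UMIs in Calca neurofilament neurons and 2.1% (1.34 to 3.14) and 1.99% (1.03 to 3.46) in proprioceptors, both of which were gated on the neurofilament genes Nefh and Nefm.

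Priming and active zone genes were found in every subtype. Unc13a (Munc13-1, the main priming factor) ranged from 50.7 and 33.7 CPM in proprioceptors to 81.5 and 83.7 CPM in Calca neurofilament neurons. Bsn (bassoon) and Pclo (piccolo), the giant scaffolds of the active zone, spanned 31.8 to 68.0 CPM and 111 to 263 CPM over subtypes and libraries. Cadps (CAPS1), which primes dense-core vesicles, spanned 117 to 262 CPM. The RIM scaffolds differed, since Rims1 was highest in C-LTMRs (80.8 and 75.9 CPM) and Rims2 in pruriceptors (135 and 109 CPM) in both libraries. The Rims1 interval of C-LTMRs overlapped that of myelinated LTMRs in both libraries (71.4 and 73.0 CPM) and that of Mrgprd nociceptors in the cKO library (75.1 CPM). Exons of the predicted gene Gm47303 overlap Bsn on the same strand, and no other member shares exon sequence with a gene on its strand in GENCODE vM21.

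Rab3a, the main vesicle Rab, was at 1157 and 1018 CPM in proprioceptors and 633 and 451 CPM in Mrgprd nociceptors, and Rab3c, its close relative, at 746 and 541 and 267 and 332 CPM. Of the SV2 family, vesicle glycoproteins thought to tune priming, Sv2b was the one tied to neurofilament-rich neurons. It was at 121 and 112 CPM in Calca neurofilament neurons, 131 and 101 CPM in proprioceptors and 95.4 and 116 CPM in myelinated LTMRs, and at 3.55 and 8.86 CPM in C-LTMRs. Sv2a spanned 51.3 to 166 CPM and Sv2c 72.5 to 215 CPM. The synapsins, which tether vesicles in the reserve pool, differed in order. Syn1 was highest in Calca neurofilament neurons in the flox library (254 CPM) and in Mrgprd nociceptors in the cKO library (197 CPM), and Syn2 in peptidergic neurons (321 CPM) and Calca neurofilament neurons (239 CPM), each with an interval that overlapped the next subtype's. Syp (synaptophysin, an abundant vesicle protein) was lowest in pruriceptors at 58.3 and 57.5 CPM.

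For Slc17a7, Slc17a8 and Syt2, the genes with the most similar pattern were sought among 15023 genes by the Pearson correlation of their levels over 14 points, the 7 subtypes of both libraries. For Slc17a7 they were Chchd10 (0.99), Tafa2 (0.98), Defb42 (0.98), for Slc17a8 Eogt (0.96), Myom2 (0.96), Nkd2 (0.96) and for Syt2 Tuba4a (0.98), Glrb (0.98), Lgi3 (0.97). The points of a library share its cells, its depth and its free RNA, so these are descriptions only.

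The stretches before the start sites of 4 members are shown, 3 from the genes held by neurofilament-rich neurons and Syn1 for its pair of less common motifs. They come from RefSeq on GRCm38.p6, run 5′ to 3′ on the strand of the gene, and end at the RefSeq start site or before the first GENCODE exon. Capitals mark GGGCGG (a GC box), CCAAT, TGACGTCA (a cyclic AMP response element) or TCAGCACC (the left part of the element bound by the repressor REST), on either strand. TATAAA was also searched. In Slc17a7 the pair of GC boxes nearest the start share a base.
Slc17a7 chr7:45163671-45163920, forward strand: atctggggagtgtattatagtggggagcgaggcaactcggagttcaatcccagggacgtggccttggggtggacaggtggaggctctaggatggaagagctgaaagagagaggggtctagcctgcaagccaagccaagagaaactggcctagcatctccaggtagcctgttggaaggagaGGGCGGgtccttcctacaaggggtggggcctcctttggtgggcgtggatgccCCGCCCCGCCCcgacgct
Syt2 inner start site chr1:134709050-134709299, forward strand: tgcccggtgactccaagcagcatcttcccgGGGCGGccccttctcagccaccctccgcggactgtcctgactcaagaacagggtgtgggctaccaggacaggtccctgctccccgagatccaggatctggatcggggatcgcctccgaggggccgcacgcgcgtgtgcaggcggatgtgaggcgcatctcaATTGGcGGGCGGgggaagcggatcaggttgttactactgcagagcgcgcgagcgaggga
Vamp1 chr6:125215331-125215550, forward strand: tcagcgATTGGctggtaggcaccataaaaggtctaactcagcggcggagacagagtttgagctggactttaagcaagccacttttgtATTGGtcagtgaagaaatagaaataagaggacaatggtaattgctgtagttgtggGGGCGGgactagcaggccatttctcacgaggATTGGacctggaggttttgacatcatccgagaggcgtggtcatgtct
Syn1 chrX:20921005-20921168, reverse strand: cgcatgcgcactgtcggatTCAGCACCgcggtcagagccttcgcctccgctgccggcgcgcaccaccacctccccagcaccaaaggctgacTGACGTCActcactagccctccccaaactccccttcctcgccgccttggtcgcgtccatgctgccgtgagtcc

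In the 250 bases before the start, 26 of the 33 members had at least 1 RefSeq promoter, 35 in all. GGGCGG was in 54.3% of these and in 32.7% of all 32851 promoters, with a median GC content of 58.0% and 52.4%. CCAAT was in 20.0% and 33.8%, and TATAAA in 5.71% and 12.4%. TGACGTCA and TCAGCACC were each in 1 member promoter, that of Syn1 in both cases, against 1.55% and 1.32% of all promoters. Slc17a7 holds 3 GGGCGG matches, the inner Syt2 promoter 2 with 1 CCAAT, and Vamp1 1 with 3 CCAAT. The 3′ counts do not tell which Syt2 start site was used.

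Outside neurons, RNA set free by damaged cells can give neuronal UMIs. As a reference for it, 15 neuron genes such as Prph, Tubb3 and Scn10a stood in all glia at 0.668% to 3.93% of their neuron level in the flox and 1.36% to 5.06% in the cKO library. Of 31 members with at least 10 CPM in neurons, the median was 3.32% and 4.29%. In both libraries 5 had an interval above the highest reference gene, namely Vamp2, Nsf, Syt11, Cplx2 and Bsn. The share of all genes above that reference is not given here, so this count has no background. Vamp2 was highest by this measure in flox glia at 21.8% and Syt11 in cKO glia at 18.9%. Satellite glia, taken by Fabp7, held Syt11 at 249 CPM (223 to 278) and 191 CPM (167 to 218), which is 42.9% and 32.6% of the neuron level. Myelinating Schwann cells held 71.1 and 80.0 CPM and fibroblasts 26.4 and 27.6 CPM. Syt11 exceeded the reference in both libraries in every glial class, cycling glia among them, and not in fibroblasts. In satellite glia Rims1 (19.4% and 23.0% of the neuron level) and Sv2c (22.9% and 26.1%) also exceeded the reference in both libraries, from 13 to 39 UMIs each. Satellite glia had 3 of 8 fixed markers raised (Fabp7, Apoe and Ptprz1), and neuron panel medians of 5.14 and 3.99 UMIs per 10000.

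Vamp2 and Nsf, which serve membrane fusion in many cell types, were above the reference in each glial class and in fibroblasts. Vamp2 was at 74.2 and 52.0 CPM in all glia and 66.8 and 43.6 CPM in fibroblasts, Nsf at 21.1 and 20.7 and 28.2 and 29.1 CPM. Cplx2 was at 29.5 and 26.2 CPM in fibroblasts, 36.2% and 29.2% of the neuron level, and at 7.8 and 7.02 CPM in all glia. Stx1a was above the reference in fibroblasts (8.33 and 9.42 CPM), and Bsn in all glia (3.8 and 4.32 CPM). Among the separate glial classes, Cplx2 exceeded the reference in both libraries only in cycling glia, and Bsn only in myelinating Schwann cells. Slc17a7, Slc17a8 and Syt2 stood at 0.271 and 0.18, 0.611 and 0.72 and 0.746 and 1.62 CPM in all glia, and Doc2b had no UMI there, which allows up to 0.204 and 0.54 CPM. Glial lineage cells outside the myelinating, satellite and cycling gates (470 flox and 550 cKO cells) raised none of the 6 markers fixed for immature Schwann cells and are not named.

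Summed over neurons, the release genes had the same median ratio between the genotypes as all genes. Over all gated neurons the median log2 ratio of cKO over flox was -0.02 for the 33 members, all of them measured, and -0.02 for all genes. No member was higher by 0.5 or more, against 9.57% of genes, and 2 were lower by 0.5 or more, against 4.3% of genes. These were Syt5, 123 and 84.0 CPM with a ratio of -0.55 (-0.60 to -0.49), and Slc17a8, 7.66 and 5.12 CPM with a ratio of -0.58 (-0.80 to -0.37). Ranked by the interval bound nearest 0, Syn2 at -0.46 (-0.50 to -0.42) and Syp at -0.46 (-0.50 to -0.42) stood between them. The 4 highest in that ranking were Cplx1 at 0.18 (0.15 to 0.21), Vamp1 at 0.21 (0.13 to 0.29), Snap25 at 0.15 (0.11 to 0.18) and Cplx2 at 0.14 (0.08 to 0.19). By role the median was -0.33 for the transporters, whose members ran from -0.58 to 0.20, -0.16 for the vesicle proteins, which ran from -0.46 to 0.14, -0.12 for Rab3, -0.03 for priming and active zone, 0.01 for both SNAREs and calcium sensors, and 0.16 for the complexins.

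The libraries also differed in their mix of gated cells. The flox library held 210 oligodendrocytes and 150 astrocytes by the gates, cells of the central nervous system, and the cKO library 0 and 6, and their part in the results was not tested. Gated C-LTMRs, where Slc17a8 was highest, numbered 214 of 1541 flox and 123 of 3096 cKO neurons, and within them its ratio was -0.40 (-0.76 to -0.04). Their gate also needed at least 2 marker UMIs, and cKO neurons were shallower. Less than 1.5-fold below its limit lay 34 flox and 126 cKO neurons. The part of depth in these numbers was not tested. In neurons of at least 10000 UMIs (1314 flox and 1481 cKO cells) Syt5 was at -0.61, Slc17a8 at -0.49, Syn2 at -0.44 and Syp at -0.43, so that only Syt5 was lower by 0.5. With subtypes weighted equally it was also 1. With each cell weighted equally the member median was -0.27 and 8 members were lower by 0.5, and thinned to 1000 UMIs it was -0.28 with 8. The median of all genes was then -0.11 and -0.12. The share of all genes past 0.5 under these alternatives is not given here, so those counts have no background.

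**Figure D4:**
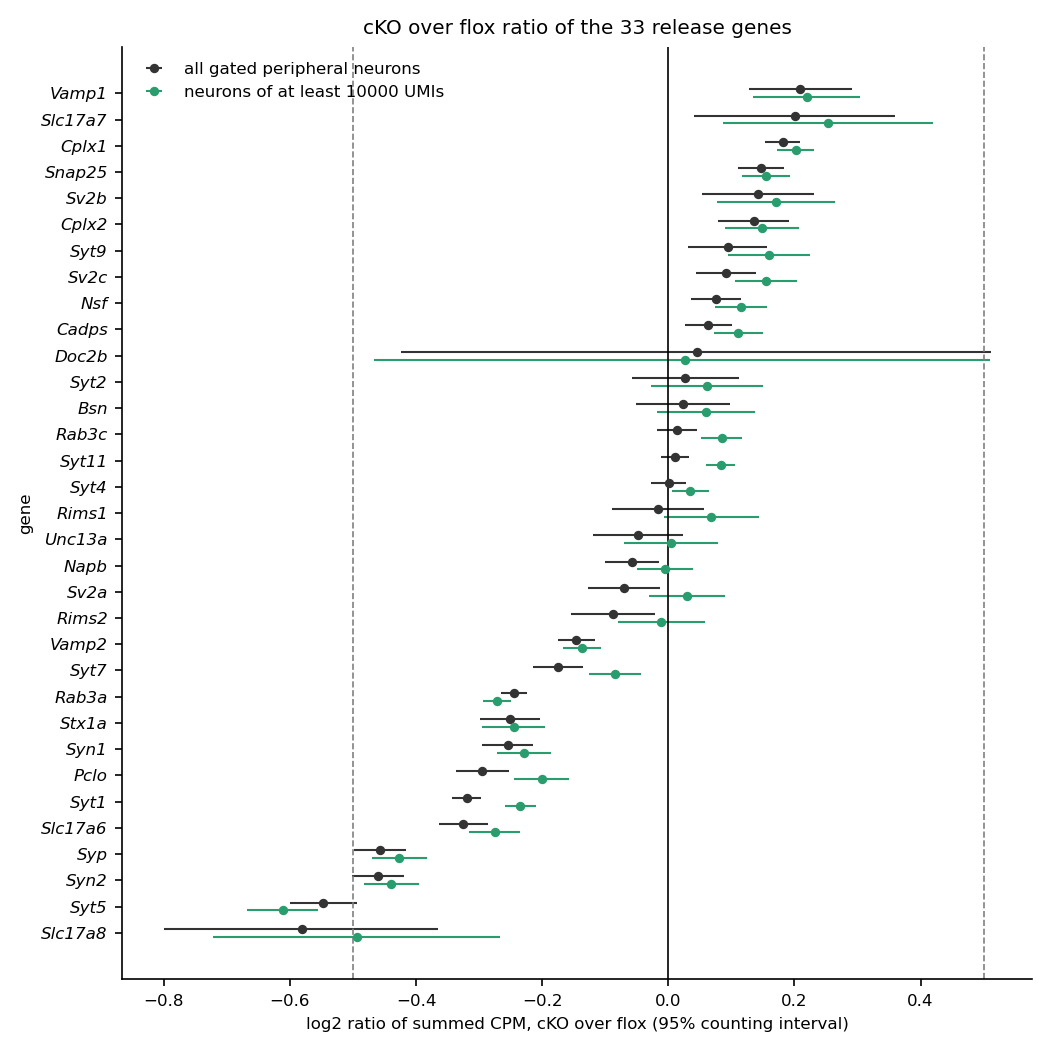
Log2 ratio of cKO over flox for the 33 genes in all gated neurons (dark) and in neurons of at least 10000 UMIs (green), with exact 95% counting intervals, ordered by ratio, dashed lines at 0.5 either side of 0. Syt5 lies beyond -0.5 in both sets and Slc17a8 in the first, while Vamp1, Slc17a7, Cplx1 and Snap25 lie a little above 0.

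Some members differed in the same direction in each subtype. Of the 23 members measured in all 7 subtypes, 6 were lower in the cKO library in every one, namely Vamp2, Syt1, Rab3a, Syn1, Syn2 and Syp. The same held for 9.68% of the 4175 genes measured in all 7. No member was higher in every one, against 8.93% of genes. Syn2 had an interval below 0 in all 7, with ratios from -0.78 in peptidergic neurons to -0.25 in myelinated LTMRs. Its levels there were 321 and 187 and 283 and 239 CPM. Rab3a went from -0.49 in Mrgprd nociceptors to -0.05 in peptidergic neurons, Syp from -0.88 in proprioceptors to -0.02 in pruriceptors, and Vamp2 from -0.22 to -0.08. Syt5 was lower in each of the 6 subtypes where it was measured, all but proprioceptors, and most in pruriceptors (184 and 72.6 CPM, -1.34 (-1.79 to -0.91)). In neurons of at least 10000 UMIs 4 members (Vamp2, Rab3a, Syn1 and Syn2) were lower in all 7 subtypes, against 10.3% of genes. Without doublet removal it was 5, the same genes except Syn1, against 9.61%. With stricter subtype limits it was 3 (Vamp2, Syt1 and Syn2, against 7.61%) and with thinning to 1000 UMIs it was 0 (against 3.18%).

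The count of members past 0.5 is given for each subtype beside the share of its measured genes. In proprioceptors, with 34 and 35 cells, 9 of 27 measured members were lower, against 21.6% of genes, and none was higher, against 7.17%. The member median there was -0.38 and that of all genes -0.13. The lowest was Slc17a6 at -1.11 (-1.61 to -0.63), followed by Syp (-0.88), Vamp1 (-0.73) and Snap25 (-0.65), whereas Slc17a7 was at -0.01 (-0.49 to 0.47). Flox proprioceptors held more glial RNA than those of the cKO library, with medians of 30.7 and 17.7 UMIs of the glial panel per 10000, and the part of this in the result was not tested. In myelinated LTMRs none of 31 measured members was past 0.5 in either direction, against 6.08% of genes higher and 5.29% lower, with ratios from -0.42 (Syn1) to 0.41 (Syt4).

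In Mrgprd nociceptors 2 of 31 measured members were higher (Vamp1 and Slc17a8), against 8.9% of genes, and 3 were lower (Syt5, Syn2 and Syp), against 7.88%. The Slc17a8 ratio there was 0.66 (-0.08 to 1.39) from 39 and 29 UMIs, an interval that includes 0. In C-LTMRs 2 of 31 were higher (Sv2b and Cplx2), against 7.08% of genes, and 2 were lower (Syn2 and Syp), against 10.3%. In pruriceptors 2 of 27 were higher (Cplx1 and Cplx2), against 8.23% of genes, and 1 was lower (Syt5), against 12.6%. At most 3 members were past 0.5 in a direction in each of these subtypes. In peptidergic neurons 1 of 32 was higher (Slc17a7), against 7.68% of genes, and 4 were lower (Doc2b, Pclo, Syn2 and Slc17a6), against 11.1%. In Calca neurofilament neurons 2 of 30 were higher (Syt7 and Sv2a), against 13.1% of genes, and none was lower, against 9.57%. Syn2 was thus past -0.5 in 3 of the 7 subtypes. The member median was 0.16 in Mrgprd nociceptors, -0.01 in C-LTMRs, -0.06 in pruriceptors and -0.18 in peptidergic neurons. It was -0.01 in both Calca neurofilament neurons and myelinated LTMRs. In the same order the medians of all genes were 0.04, -0.04, -0.05, -0.08, 0.03 and -0.01. The ratio of Cplx2 in pruriceptors was 1.37 (0.48 to 2.30), from 16 and 41.3 CPM, and that of Syt7 in Calca neurofilament neurons 1.21 (0.77 to 1.66), from 40.1 and 93.0 CPM. That of Sv2b in C-LTMRs was 1.32 (0.47 to 2.16), but in C-LTMRs of at least 10000 UMIs it was 0.69 (-0.39 to 1.70) from 27 and 13 UMIs, an interval that includes 0. These 3 values were singled out after they had been seen.

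A wider list of 58 other release genes, chosen by function, had a like median. There were 55 measured, with a median of -0.04, against -0.02 for all genes. By 0.5 or more 2 of the 55 were higher, against 9.57% of genes, and 4 were lower, against 4.3%. Stx2, another syntaxin, was higher at 103 and 154 CPM, a log2 ratio of 0.58 (0.53 to 0.63). Syn3, a synapsin, was higher at 2.13 and 3.66 CPM, a log2 ratio of 0.78 (0.46 to 1.10). Lower were the vesicle protein Syngr3 (285 and 192 CPM, a log2 ratio of -0.57 (-0.61 to -0.54)), the adaptor Napa, which like Napb serves NSF (227 and 159.5 CPM, a log2 ratio of -0.51 (-0.55 to -0.47)), the synaptotagmin Syt6 (-0.55) and the priming factor Unc13c (-0.51).

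Neurons of few UMIs were unlike in the libraries. The 227 flox neurons under 10000 UMIs held Syt1 at 884 CPM against 562 CPM in the deeper flox neurons, Syt7 at 565 against 185 CPM and Syt11 at 1094 against 574 CPM. In the 1615 such cKO neurons Syt1 was at 309 against 478 CPM, Syt7 at 132 against 174 CPM and Syt11 at 449.5 against 608 CPM. The shallow neurons were thus above the deep ones in the flox library and below them in the cKO library for these 3 genes. By the 0.5 rule 15 members were higher and 3 lower in shallow flox neurons, against 40.6% and 18.6% of genes, and 0 were higher and 6 lower in shallow cKO neurons, against 11.2% and 10% of genes. The shallow flox neurons also held the nuclear RNA Meg3 at 8193 CPM, against 1998 CPM in the deeper ones, and a median of 2.05% against 1.17% mitochondrial UMIs. In the cKO library Meg3 was at 1290.0 and 1751 CPM and mitochondrial UMIs at 0.74% and 1.48%. The part of these measures in the ratios between genotypes was not tested.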

How the data were processed

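The deposited matrices hold whole-number counts of UMIs per gene and cell, and the authors made them with Cell Ranger. The file headers name version 6.1.2, while the submitters' processing notes name Cell Ranger 5.0.1, Scanpy and the build mm10. Annotation release and counting options are not given in the sources used here.

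Barcodes below 1000 UMIs or 500 genes, or above 15% mitochondrial UMIs, were dropped, which together with doublet removal left 8107 of 10014 flox and 7866 of 9703 cKO barcodes. The automatic threshold of Scrublet (in scanpy 1.11.5) marked 0 and 2 cells, so the top of the score ranking was dropped instead, 0.8% for every 1000 cells (607 and 569 cells). Classes were set by UMIs of marker sums per 10000 UMIs of a cell, without any member. Neurons needed 50 of the neuron panel and 10 of the peripheral sensory panel, with under 100 of any other class. Subtype limits were 4 (Mrgprd, Plxnc1, Agtr1a and Lpar3), 4 (Tafa4, P2ry1, Cdh9 and Zfp521), 2 (the pruriceptor panel), 8 of Tac1, Adcyap1 and Gal with 8 of Calca (peptidergic), 16 of Calca with 16 of Nefh and Nefm (Calca neurofilament), 20 of Pvalb and Runx3 with 16 of Nefh and Nefm (proprioceptor), and 4 of Ntrk2 and Ntrk3 with 8 of Nefh and Nefm (myelinated LTMR). Glia needed 20 of the glial panel, satellite glia 8 of Fabp7 and myelinating cells 500 of the myelin panel. These genes were taken from fixed panels and the limits were set after the panel levels had been seen. A cell inside more than 1 subtype gate was given none.

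UMIs were summed by class and library and divided by the class total. Intervals are exact: Poisson for levels, Clopper-Pearson for shares and conditional binomial for log2 ratios (95%, scipy 1.17.1). PCR, dissociation and animals add error that these do not cover. A gene was measured at 50 UMIs over both libraries and counted as higher or lower at 0.5 on the log2 scale. A count of 0 allows up to 3 counts of the total. Alternatives were TMM factors (edgeR 4.0.16 in R 4.3.3), cell means, thinning, deeper cells, equal subtype weights, no doublet removal, no filter and stricter gates. The ratio was checked on simulated counts.

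Named in full were the transporters, the VAMP, synaptotagmin 1 and 2 and complexin pairs, the 8 members with the widest range over subtypes, and the 4 highest and 4 lowest ratios by the interval bound nearest 0. The members and lists were chosen with earlier results of these data known. Gene positions are from GENCODE vM21 on GRCm38, which matched 32158 of 32285 gene IDs.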

Additional observations from a re-analysis of the deposited data

Results flagged for a closer look

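The log2 ratio of cKO over flox of Vamp1 was 0.56 in Mrgprd nociceptors and -0.73 in proprioceptors. That of Sv2a was 0.51 in Calca neurofilament neurons and -0.64 in proprioceptors. In each case 1 subtype lay past 0.5 one way and the other past 0.5 the opposite way. Each subtype is 1 sample for each genotype, so the difference was not tested.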

How the results depend on the processing

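No paired analysis was possible because each genotype has 1 library. None of the values recomputed changed direction past the size rule. With a mean of CPM over cells the member median was -0.27 with 8 lower, and the wider list had a median of -0.22 with 5 higher and 11 lower. With cells thinned to 1000 UMIs these were -0.28 with 8 lower, and -0.24 with 1 higher and 8 lower. The median of all genes moved to -0.11 and -0.12 under these settings. In neurons of at least 10000 UMIs 1 member and 2 genes of the wider list were lower, with equal subtype weights 1 member was lower, and with TMM factors 2 genes of the wider list were lower. With equal weights in neurons of at least 10000 UMIs, an alternative chosen after seeing the data, 1 member was higher, 1 was lower and 2 genes of the wider list were lower. The count of members higher in all 3 neurofilament subtypes was 3 with thinning (against 0.746% of genes) and 3 with stricter subtype limits (against 2.02%). The count of members below in all 7 subtypes was 0 with thinning (against 3.18%) and 3 with stricter limits (against 7.61%). The members lower in all 3 neurofilament subtypes were 3 with thinning (against 0.805% of genes) and 3 with stricter limits (against 2.6%). Of 33 member ratios, 33 stayed within their interval with TMM factors, without doublet removal and without the filter, 32 with a stricter neuron gate, 16 in deeper neurons, 15 with equal weights, 6 with cell means and 3 with thinning. Of 28 subtype levels recomputed, 28 counted as the same without doublet removal and 26 in neurons of at least 10000 UMIs. With stricter subtype limits it was 14 of 28, and with thinning 7. Of 8 glial levels, 8 counted as the same without doublet removal, 5 with a stricter glial gate and 4 with thinning. The cause was not tested. The pruriceptor, Calca neurofilament and proprioceptor gates held 29 to 63 cells in a library, and cKO peptidergic and Calca neurofilament neurons had over 50% of cells under 10000 UMIs (53.6% and 61.9%).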
